A study of Mus musculus with 4 samples.

Results

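The epithelial cells described here were 192 droplet barcodes of the TNF+ synovium, out of 4246 in that library and 30943 in the 4 libraries of the series. A barcode entered when it held at least 500 UMIs (unique molecular identifiers, each counting 1 captured transcript) and at most 20% mitochondrial UMIs, which 3498 barcodes did. It then had to carry at least 2 UMIs of Epcam plus Cdh1, which hold epithelial cells together, and at least 3 UMIs of the keratins Krt8, Krt18, Krt5 and Krt14. Any UMI of Ptprc, the pan-leukocyte CD45, or Cdh5, the endothelial cadherin, excluded it. The members made up 5.49% of the kept barcodes (95% exact binomial interval 4.76 to 6.30). The members were thus chosen by the measured values of these 8 genes, whose levels are a description of the choice and not a finding.

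The study compared TNF+ mice, which carry a single copy of a human TNF transgene and develop inflammatory arthritis together with lung disease, with TNF- littermates. Female C57BL/6 mice were taken at 4 months, and lung and synovium were sequenced for each genotype with a droplet kit that reads the 3′ end of transcripts. Tissue was pooled before digestion, from 3 to 5 mice per genotype for lung and 5 to 10 for synovium, and synovium was released with type II collagenase. Live cells were sorted before capture. Each of the 4 groups was thus 1 library from pooled animals, so genotypes cannot be told apart from pools, no test between groups was possible, and no value below has a replicate error. Levels are given as CPM, the UMIs of a gene for every 1000000 UMIs summed over the cells of a class. Intervals are exact 95% intervals that cover counting error only.

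The kept barcodes had a median of 8109 to 13057 UMIs across the 4 libraries, and 10204 in the TNF+ synovium. The members had a median of 14965.5 UMIs and 3583 detected genes, and they held 7.42% of the UMIs of that library's kept barcodes. Fibroblasts and myeloid cells of the same library, gated as described below, had medians of 19922 and 15390 UMIs. Between 5 and 21 cell barcodes were shared by any pair of libraries, and 0 members shared theirs with another library. At the edges of the rule, 11 members sat at the minimum of 2 Epcam plus Cdh1 UMIs and 2 otherwise suitable barcodes lay 1 UMI below it. Likewise 5 members sat at the minimum of 3 keratin UMIs and 4 barcodes lay 1 UMI below. A further 12 barcodes met every condition apart from carrying Ptprc or Cdh5.

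Gland epithelium, as in the mammary gland, is a bilayer. Luminal cells face the lumen and carry Krt8 and Krt18, and basal, or myoepithelial, cells carry Krt5 and Krt14 together with smooth muscle proteins and contract to expel the secretion. In the mammary gland the luminal layer holds hormone-sensing cells, which express the estrogen, progesterone and prolactin receptors, and secretory progenitors, which express Kit, Elf5 and Aldh1a3 and give rise to milk-producing cells. The synovial lining itself consists of fibroblasts and macrophages and holds no epithelium of this kind.

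Marker lists for several epithelia were compared in the members. All 13 genes of the mammary hormone-sensing list and 10 of the 11 genes of the mammary secretory list had UMIs in luminal cells, with summed levels of 4755 and 3971 CPM. All 8 myoepithelial genes had UMIs in basal cells, with a summed level of 9831 CPM. The other barcodes of the library also had UMIs of every gene of these lists, so detection does not set the members apart. Their summed levels were 525 CPM for the hormone-sensing, 1334 CPM for the secretory and 551 CPM for the myoepithelial list. By contrast, the 9 lung epithelial genes, among them the surfactant gene Sftpc and the club cell gene Scgb1a1, summed to 24 UMIs over all members, and 6 of the 9 were at 0. Of 9 salivary and lacrimal genes 7 were at 0, and of 6 hair follicle genes 4 were at 0. The 12 epidermal keratinocyte genes summed to 635 UMIs, but 4 of them were at 0, including the cornified envelope gene Ivl, and Krt1 had 4 UMIs. In the sweat gland list, Aqp5, a water channel, and Slc12a2, a chloride cotransporter, were well expressed. That list summed to 1494 CPM in luminal cells, with 5 of its 7 genes detected and 2 at 0, and to 73.7 CPM in the other barcodes. The milk proteins Csn1s1, Csn2 and Wap had 0 UMIs in 3510707, which allows up to 0.855 CPM, and Lalba had 8 UMIs. Among the epithelial lists compared, the mammary luminal lists had the highest summed levels in luminal cells and the myoepithelial list in basal cells, with Csn3 as the only casein of the list that was detected. Relative to the other barcodes of the library the order was different. The median log2 ratio of members over other barcodes was 5.61 for the 2 tested sweat gland genes. It was 4.22 for 11 hormone-sensing and 2.44 for 9 secretory genes. The lists differ in length and were chosen with earlier results of these data known, so the ranking by summed level is descriptive.

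**Figure D1:**
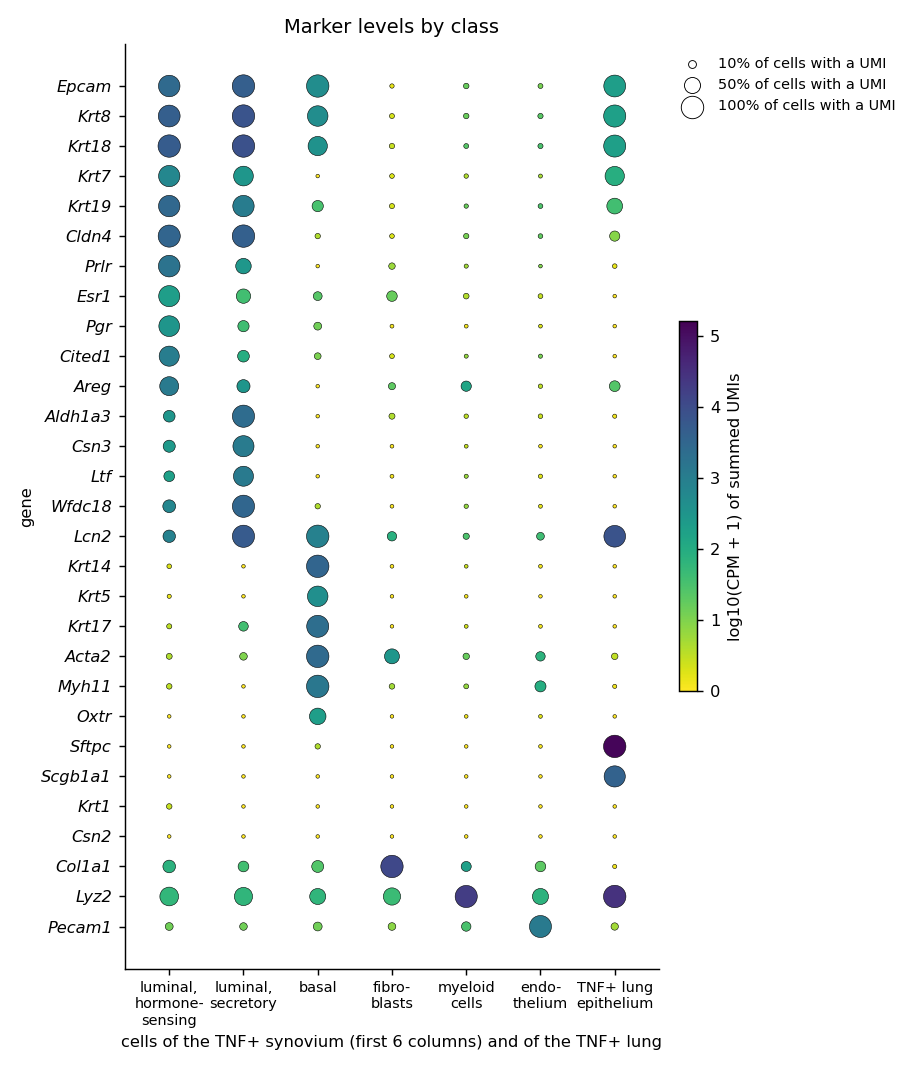
Level (colour, log10 of CPM + 1) and share of cells with a UMI (dot size) of 29 marker genes, in rows, for the epithelial classes and gated fibroblasts, myeloid cells and endothelium of the TNF+ synovium and for TNF+ lung epithelium, in columns. Mammary luminal markers fill the first 2 columns and myoepithelial markers the third, while Sftpc and Scgb1a1 appear in the lung column and Csn2 is at 0 throughout.

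In the GRCm38 annotation the marker genes lie at separate loci, apart from neighbouring keratins on chromosome 15. Krt8 spans chr15:101996698-102004482 on the minus strand and Krt18 chr15:102028180-102032027 on the plus strand, and Krt5 lies at chr15:101707070-101712898. Krt14 is at chr11:100203162-100207548, Prlr at chr15:10177238-10349180, Aldh1a3 at chr7:66390890-66427517 and Csn3 at chr5:87925579-87932665.

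The keratin pairs divided the members into luminal and basal cells. Luminal cells, with more Krt8 plus Krt18 than Krt5 plus Krt14, numbered 162 (84.4%, interval 78.5 to 89.2), and basal cells numbered 30 (15.6%, interval 10.8 to 21.5), with 0 ties. Of the luminal cells, 157 had 0 UMIs of Krt5 and Krt14. The luminal keratins were less exclusive, since 2 of the 30 basal cells had 0 UMIs of Krt8 and Krt18 and the others carried some. The pairs lay within 3-fold of each other in 9 members. Myoepithelial-list UMIs reached 132 in a luminal cell, where the luminal median was 0. Krt14 ran from 3 through a median of 27.5 to 108 UMIs per basal cell, and Krt18 from 1 through 84 to 648 per luminal cell. Luminal cells were deeper (median 16267.5 UMIs) than basal cells (9300.5).

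**Figure D2:**
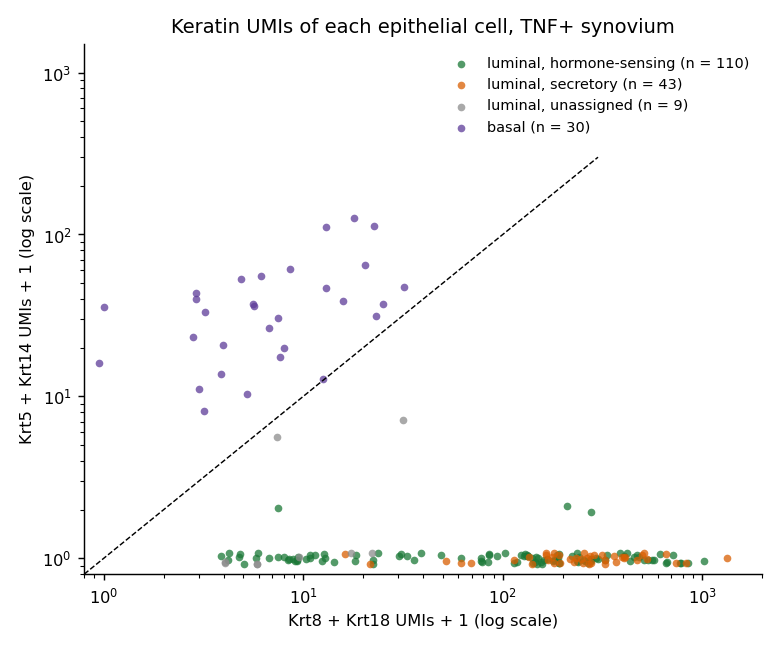
Krt8 plus Krt18 UMIs (x axis) against Krt5 plus Krt14 UMIs (y axis) of each of the 192 members, 1 added and both on log scales, with a small random offset so that points do not hide each other. The dashed line marks equal values: 157 of the 162 luminal cells lie along the bottom, and the 30 basal cells lie above the line.

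The first comparison asked what else differed between the layers. Of 6914 genes with at least 50 UMIs over both layers, 709 (10.3%) were at least 4-fold higher and 356 (5.15%) at least 4-fold lower in luminal than in basal cells, bounds for genes at 0 in 1 layer included. The median log2 ratio of all 6914 genes was 0.23, and basal cells held 318166 UMIs against 3192541, so low basal genes were measured far less precisely.

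Some of the widest ratios between the layers were those of claudins. Cldn4, a claudin that seals the space between cells, stood at 3489 CPM (3425 to 3554) in luminal cells, from 0 through a median of 45 to 569 UMIs per cell, and had 1 UMI in all basal cells. The log2 ratio was 10.12, with a wide counting interval of 7.64 to 15.42. Cldn3 (log2 ratio 7.21, interval 4.73 to 12.51) and Cldn7 (7.20, interval 4.72 to 12.50) also had 1 basal UMI each. Of the 9 tested genes of the junction list 4 were 4-fold higher in luminal cells and 0 were lower. The desmosome gene Dsp (-0.53, interval -0.92 to -0.12) and the scaffold Tjp1 (0.11, interval -0.30 to 0.54) belonged to the remaining 5, so the desmosome and scaffold genes were present in both layers. The simple keratins Krt7, with 1646 luminal and 0 basal UMIs, and Krt19 (log2 ratio 6.19, interval 5.31 to 7.26) followed the claudins.

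Hormone receptor genes belonged to the luminal layer. Prlr, the prolactin receptor, reached 1244 CPM (1205 to 1283) in luminal cells, with a median of 6 and a maximum of 129 UMIs per cell, and had 0 UMIs in the 30 basal cells, which puts the log2 ratio at 7.04 or more when basal cells are given the floor of 3 UMIs. Pgr, the progesterone receptor, had a log2 ratio of 4.18 (interval 2.82 to 6.06). Esr1, the estrogen receptor alpha, was lower in level, at 149 CPM against 22.0 (log2 ratio 2.76, interval 1.71 to 4.08). Cited1, a transcriptional coactivator of estrogen signalling, was at 731 CPM against 9.43, from 3 basal UMIs (log2 ratio 6.28, interval 4.73 to 8.55). Of the 12 tested genes of the hormone-sensing list, 10 were 4-fold higher in luminal cells and 0 lower (median log2 4.28 against 0.23 over all genes). Tnfsf11, which encodes RANKL, a paracrine signal of progesterone-stimulated mammary cells, had 5 UMIs in all members.

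Secretory genes were also luminal. Of 10 tested genes of the secretory list 8 were 4-fold higher and 0 lower (median log2 2.96). Csn3, kappa-casein, was at 483 CPM (459 to 508) with 0 basal UMIs, and it was unevenly spread, from 0 through a median of 0 to 93 UMIs per luminal cell. Aldh1a3, a retinaldehyde dehydrogenase, was at 883 CPM with 0 basal UMIs (log2 bound 6.55). Ltf, lactoferrin, an iron-binding milk protein, was at 461 CPM with 0 basal UMIs, and Wfdc18, a whey acidic protein relative, at 1309 CPM with 1. Lcn2, the siderophore-binding lipocalin, was an exception with 2062 CPM in luminal and 877 CPM in basal cells, below 4-fold (log2 ratio 1.23, interval 1.06 to 1.41). It was detected in 100% of basal cells and 47.5% of luminal cells. Thinned to 2000 UMIs per cell, 66.7% of basal and 42.0% of luminal cells had an Lcn2 UMI, against 6.34% of gated fibroblasts of the same library.

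**Figure D3:**
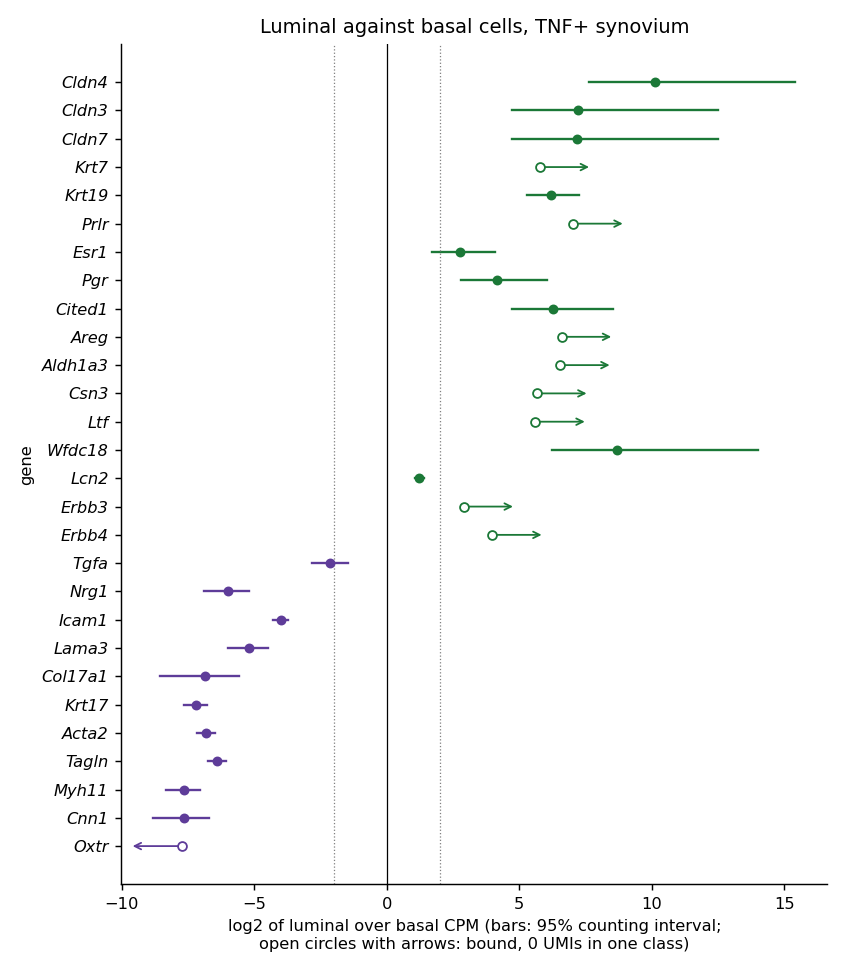
Log2 ratio of luminal over basal CPM for 28 named genes, with 95% counting intervals as bars and, for genes with 0 UMIs in 1 layer, the bound as an open circle with an arrow. Dotted lines mark 4-fold: claudins, hormone receptors and secretory genes lie to the right, Lcn2 lies inside the lines, and contractile and adhesion genes lie to the left.

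Basal cells carried a contractile programme. All 7 tested myoepithelial genes were 4-fold lower in luminal cells (median log2 -7.20). Acta2, smooth muscle actin, was at 2653 CPM (2477 to 2838) in basal cells, from 3 through a median of 16.5 to 103 UMIs per cell, against 23.8 CPM in luminal cells (log2 ratio -6.80, interval -7.16 to -6.46). In luminal cells Acta2 reached 47 UMIs, in a cell that the luminal split below left unassigned. Hormone-sensing and secretory cells of that split had at most 3 and 4. Every basal cell had Acta2 UMIs. Myh11, smooth muscle myosin, was at 1386 CPM and Cnn1, calponin, at 566 CPM. Oxtr, the oxytocin receptor that triggers myoepithelial contraction, had 63 UMIs in basal and 0 in luminal cells, and 53.3% of basal cells had at least 1. Krt17, a basal keratin, was at 2203 CPM against 15.0. Trp63, the p63 regulator of basal epithelium, had 25 UMIs in all, each of them basal, which is under the minimum for the comparison.

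Some genes of attachment to the basement membrane were basal as well. Of 7 tested, 3 were 4-fold lower in luminal cells and 0 higher. Col17a1, a hemidesmosome collagen, was at 182 CPM in basal and 1.57 CPM in luminal cells (log2 ratio -6.86, interval -8.54 to -5.56), and Lama3, a laminin chain, at 242 against 6.58. Dst, which encodes the linker dystonin, was present in both layers, with a log2 ratio of -0.23 (interval -0.43 to -0.02). Itgb4, the hemidesmosome integrin, was on the luminal side, at 57.9 against 15.7 CPM, within the 4-fold limit (log2 ratio 1.88, interval 0.63 to 3.52). Outside the lists, the highest basal genes by ratio were Scn7a, a sodium channel family member (log2 ratio -10.01, interval -13.06 to -8.14, in 96.7% of basal cells), Xkr4 (-8.88), Cdh3, the basal P-cadherin (-8.44), and Lgr5, the R-spondin receptor (-8.16). Scn7a, Cdh3 and Lgr5 each had 2 luminal UMIs.

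The ligands and receptors of the EGF family were divided between the layers. Areg, amphiregulin, was at 921 CPM (888 to 955) in luminal cells with 0 basal UMIs (log2 bound 6.61). Nrg1, the neuregulin ligand, was basal, at 299 CPM against 4.70 (log2 ratio -5.99, interval -6.88 to -5.20). The receptors Erbb3 and Erbb4 were luminal, at 70.5 and 149 CPM with 0 basal UMIs. Egfr itself did not differ beyond its counting interval (log2 ratio -0.35, interval -0.74 to 0.07). Of the 8 tested genes of this list 4 were 4-fold higher and 2 lower in luminal cells.

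Among transcription factors, 2 of 10 tested were 4-fold higher in luminal cells and 1 was lower. Foxa1, a partner of the estrogen receptor, had 180 luminal and 0 basal UMIs, and Ehf had 311 and 0. Sox10 was the lower one, at 10.0 CPM in luminal and 59.7 CPM in basal cells (log2 ratio -2.57, interval -3.44 to -1.67). Sox9 was present in both at 700 and 261 CPM. Gata3, a regulator of luminal fate, was at 59.8 CPM in luminal and 167 CPM in basal cells (log2 ratio -1.48, interval -1.92 to -1.01).

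Immediate-early and heat shock genes, which respond within minutes to stress and to tissue dissociation, were measured as a group. Fos was higher in basal cells, at 2650 CPM in basal and 543 CPM in luminal cells (log2 ratio -2.29, interval -2.41 to -2.17), and Hspa1a at 559 against 63.0. Of the 9 genes tested, 3 were 4-fold lower in luminal cells and 0 higher (median log2 -1.67). Jun went the other way within the 4-fold limit, at 1232 CPM in luminal and 757 CPM in basal cells (log2 ratio 0.70, interval 0.51 to 0.90). Thinned in the same way, which left out 0 members, 76.7% of basal and 31.5% of luminal cells had a Fos UMI, and 30.7% of gated fibroblasts of the same library did. The part of tissue handling in these levels was not tested.

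The second comparison divided the luminal cells by 2 gene sets. Cells with more UMIs of Prlr, Esr1, Pgr and Cited1 than of Kit, Elf5 and Aldh1a3, and at least 2 of them, were called hormone-sensing and numbered 110. The reverse gave 43 secretory cells, and 9 were left unassigned. Hormone-sensing cells were 71.9% (interval 64.1 to 78.9) of the assigned cells. The sets were not exclusive, since 62 of the 162 luminal cells had at least 1 UMI of each. Those 62 cells had a median of 26089.5 UMIs, against 10192 in the other luminal cells. At least 20 UMIs of each were found in 16 cells, with a median of 53594 UMIs. Prlr and Aldh1a3 were both detected in 48 cells, Prlr alone in 76, Aldh1a3 alone in 22 and neither in 16. Scrublet, a doublet caller, marked 8 of the library's 3498 kept barcodes, too few to take it as having worked, and removing the 119 highest scores took out 4 members.

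**Figure D4:**
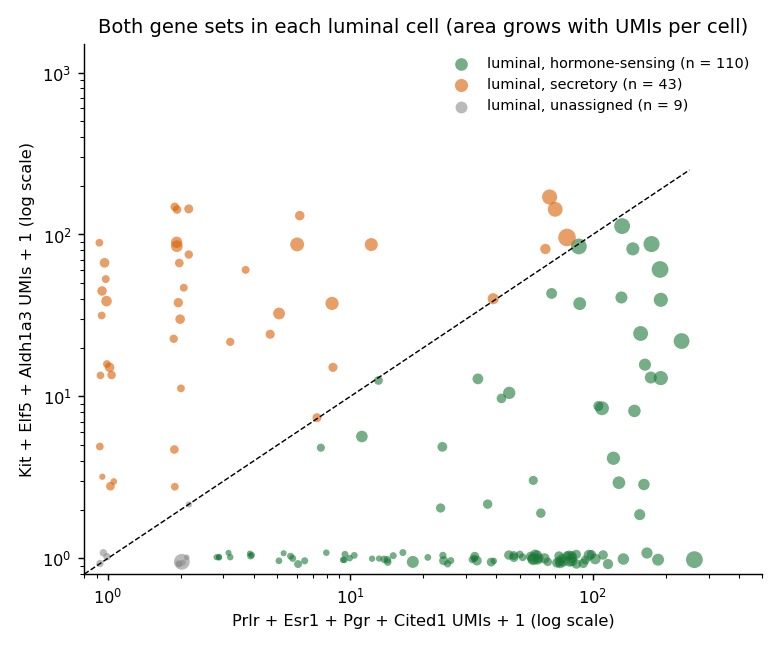
UMIs of the hormone-sensing set (x axis) against UMIs of the secretory set (y axis) for each of the 162 luminal cells, 1 added and both on log scales, with a small random offset and the point area growing with UMIs per cell. Most hormone-sensing cells lie along the bottom, the 43 secretory cells lie above the dashed line of equal values, and the large points at the upper right are the deep cells that carried both sets.

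Of 7886 genes with at least 30 UMIs over both classes, 322 (4.08%) were 4-fold higher in hormone-sensing cells and 146 (1.85%) 4-fold lower. The 7 genes that made the split are in these counts, 4 of them among the higher and 2 among the lower. Elf5 was in neither, so it did not differ 4-fold between the classes although the split used it. The split fixed their direction, so they are left out of the ranking and of the values given for this comparison. Wnt4, a Wnt ligand downstream of progesterone, was at 255 CPM in hormone-sensing and 63.4 CPM in secretory cells (log2 ratio 2.01, interval 1.61 to 2.43). Areg was at 1203 against 299.7 CPM. Both lie just past the 4-fold limit, and below it without the 3 cells rich in fibroblast UMIs described below. Fxyd2, a modulator of the sodium pump (log2 ratio 2.06, interval 1.85 to 2.28), and Ly6a, which encodes Sca-1 (2.85, interval 2.45 to 3.28), were further hormone-sensing genes. By ratio the leading gene was Upk3a, a uroplakin, with 565 UMIs against 2 (log2 ratio 6.79, interval 4.93 to 9.83). It was unevenly spread, found in 43 of the 110 hormone-sensing cells, with a median of 0 and a maximum of 139 UMIs per cell. The sweat gland list genes followed this class too, Slc12a2 at 1344 against 252 CPM and Aqp5 at 623 against 118 CPM.

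Secretory cells carried the milk and defence proteins. Csn3 was at 1142 CPM in secretory and 248 CPM in hormone-sensing cells (log2 ratio -2.20, interval -2.35 to -2.05), with a median of 11 UMIs per secretory cell and 0 per hormone-sensing cell. Ltf was at 1215 against 187 CPM, Wfdc18 at 3185 against 636 CPM and Lcn2 at 5355 against 867 CPM, the last with a log2 ratio of -2.63 (interval -2.70 to -2.55). Mfge8, the milk fat globule protein, was at 1092 against 207 CPM and was detected in 100% of secretory cells. Of the 6 tested milk genes 5 were 4-fold lower in hormone-sensing cells and 0 higher (median log2 -2.30 against 0.23 over all genes). Of the 5, Csn3, Ltf and Mfge8 also stand in the secretory list. Erbb4, a neuregulin receptor, was secretory at 390 against 58.5 CPM, as was the mucin Muc1 at 114 against 15.8 CPM. Outside the lists, Car2, a carbonic anhydrase (log2 ratio -4.77, interval -7.12 to -3.10), and the nucleoside transporter Slc28a3 (-3.87, interval -5.28 to -2.70) led by ratio. Wfdc2 went the other way, at 1752 CPM in hormone-sensing and 345 CPM in secretory cells.

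Signs of RNA quality moved with the luminal classes. Ribosomal protein genes took a median of 15.5% of the UMIs of luminal cells, with a range from 0.560% to 30.6%. They took under 5% in 42 of the 162 luminal cells, which were 36 of 110 hormone-sensing, 1 of 43 secretory and 5 of 9 unassigned cells, and in 1 of 30 basal cells. Among the other barcodes of the library 17.0% were under 5%. The 42 luminal cells had a median of 5637 UMIs, 10.1% mitochondrial UMIs and 8.5 Krt8 plus Krt18 UMIs, against 18494, 3.98% and 231 in the other luminal cells.

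The 36 hormone-sensing cells with few ribosomal protein UMIs differed in receptor levels from the other hormone-sensing cells. They were shallower, with a median of 5857.5 UMIs against 20354.5. Pgr, Esr1, Prlr and Aldh1a3 are split genes, so the split and its minimum of 2 UMIs bear on their levels here. Pgr was at 977 CPM in them and 239 CPM in the other 74 (log2 ratio 2.03, interval 1.79 to 2.26), and Esr1 at 572 against 159 CPM (1.85, interval 1.54 to 2.15). Prlr was lower, at 759 against 1776 CPM (log2 ratio -1.23), as was Krt8 at 809 against 4845 CPM. The nuclear RNAs Malat1 (log2 ratio 1.06) and Neat1 (2.25, interval 2.08 to 2.42) were higher. Aldh1a3, Csn3, Ltf and Lcn2 had 0 UMIs in these 36 cells. With such cells left out of both classes, hormone-sensing cells were 63.8% of the assigned cells in place of 71.9%. The log2 ratio of hormone-sensing over secretory for Csn3, which took no part in the split, was then -2.07. The part of RNA quality in these differences was not tested.

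TNF signalling is the agent of the model, and 14 genes of a list of its receptors, targets and chemokines were tested between the layers. In luminal cells 1 was 4-fold higher, Cxcl5, and 1 lower, Icam1. Icam1, the leukocyte adhesion molecule, was at 886 CPM (786 to 996) in basal and 55.4 CPM in luminal cells (log2 ratio -4.00, interval -4.28 to -3.72). After thinning to 2000 UMIs per cell, 60.0% of basal and 6.17% of luminal cells had an Icam1 UMI. Nfkbia, the NF-kB inhibitor and target, was at 1248 against 533 CPM. The receptor Tnfrsf1a was in both layers at 84.9 and 66.1 CPM, and Tnfrsf1b had 30 luminal and 0 basal UMIs. Mouse Tnf had 102 luminal and 0 basal UMIs. The human transgene was not measured. Within the luminal layer 0 of the 14 genes were 4-fold higher and 4 lower in hormone-sensing than in secretory cells, namely Cxcl1, Cxcl2, Ccl2 and Ccl20. The calls of Cxcl2, Ccl2 and Ccl20 ended without the 3 cells described below, where 2 of 12 tested genes were lower, Cxcl1 and Tnf. The neutrophil chemoattractant Cxcl1 was at 84.2 against 416 CPM (log2 ratio -2.31, interval -2.57 to -2.05).

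Defence and complement genes went both ways between the layers. Of 7 tested acute-phase and defence genes 5 were 4-fold higher in luminal cells and 1 lower. One of the 5, Saa3, rested on 3 cells described next, and without them 4 of 6 tested were higher. Wfdc2, a secreted protease inhibitor relative, was luminal at 1314 against 47.1 CPM (log2 ratio 4.80, interval 4.08 to 5.64). Slpi, an inhibitor of neutrophil elastase, was basal at 619 against 59.5 CPM (log2 ratio -3.38, interval -3.67 to -3.08, and -5.05 without those 3 cells). Of 8 tested complement genes 2 were higher in luminal cells, the regulators Clu (678 against 28.3 CPM) and Cd55 (80.8 against 3.14 CPM, from 1 basal UMI), and C4b, a complement component, was lower (19.4 against 81.7 CPM).

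Cxcl5 and other inflammatory genes rested on 3 barcodes that the keratin rule counted as luminal. These 3 carried 978, 554 and 134 UMIs of the fibroblast list (Col1a1, Col1a2, Col3a1, Pdgfra, Dcn and Lum), where the next member had 11 and the median of the other 189 was 1. The first of them, unassigned in the luminal split, had only 3 Epcam plus Cdh1 UMIs and 3 Krt8 plus Krt18 UMIs among 61732, at the edge of the rule, and by itself held 859 Ccl2 and 179 Saa3 UMIs. The 3 together held 96.2% of the members' Saa3 UMIs, 97.2% of Cxcl5, 80.3% of Ccl2, 92.2% of Dcn and 73.5% of C3. Without them the luminal level of Ccl2, the monocyte chemoattractant, went from 336 to 3.93 CPM and that of C3, the central complement component, from 113 to 15.4 CPM. Saa3, an acute-phase protein, went from 57.9 to 1.96 CPM. Basal Ccl2 stayed at 783 CPM, so the log2 ratio of luminal over basal went from -1.22 to -7.64, and C3 from -0.88 to -3.75. Ccl2 within the luminal layer moved likewise, from a log2 ratio of hormone-sensing over secretory of -2.73 to -0.41, while Cxcl1 stayed at -2.22. Lcn2 was not carried by the 3 cells, at 2062 CPM with and 2108 CPM without them, nor was Ltf at 461 and 472 CPM. Of the fibroblast list, Col1a1 and Col1a2 had log2 ratios of 2.19 and 2.52 with the 3 cells and -0.54 and -0.13 without.

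Leukocyte and endothelial lists were low in the members, after the rule had already excluded any UMI of Ptprc or Cdh5. The T cell list had 0 UMIs. The myeloid list summed to 325 UMIs, with at most 6 per member, and the endothelial list to 65, although at least 3 myeloid-list UMIs were found in 49 members. At least 3 fibroblast-list UMIs were found in 27 members. MHC class II genes summed to 114 UMIs in the members, 32.5 CPM against 4860 CPM in the other barcodes. Of the cell cycle list Mki67 had 1 UMI and Top2a 5, so proliferation transcripts were barely detected at this depth.

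The members were then set beside the other 3306 kept barcodes of their library, a contrast that the rule used, so that its values are descriptive. Of 4648 genes with at least 100 UMIs in the members, 477 (10.3%) were 4-fold higher and 83 (1.79%) lower. The leading genes outside the rule were Atp6v1b1, a proton pump subunit, with a log2 ratio of 9.25 (interval 7.87 to 11.14), and Btn1a1, the milk fat protein butyrophilin (8.88, interval 7.49 to 10.77). Of the 12 epithelial transcription factors 7 met that minimum, and these 7 were 4-fold higher, among them Foxa1 (8.13) and Sox9 (4.80). The minimum applied to the members alone and favoured genes high in them, so this count follows in part from it. Sox10 (51 UMIs in members and 330 outside), Snai2 (10 and 163) and Grhl2 (95 and 15) were below it. Of 14 TNF signalling genes 0 were higher and 2, Cxcl2 and Cxcl5, lower, and Nfkbia was close to the other barcodes (-0.35, interval -0.42 to -0.29). In gated fibroblasts thinned to 2000 UMIs, 0 of 473 had a Csn3 UMI and 1.06% a Prlr UMI, against 24.1% and 56.8% of luminal cells. Their median depths before thinning were 19922 and 16267.5 UMIs.

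The same rule found epithelium in the lung, which served as a second reference. It found 118 cells in TNF+ lung (1.06% of kept barcodes) and 309 in TNF- lung (3.70%), and 0 of them were basal by keratins. Of 7785 genes with at least 100 UMIs over both groups, 725 (9.31%) were 4-fold higher and 782 (10.0%) lower in the members than in TNF+ lung epithelium. Sftpc had 1 UMI in the members and 132516 CPM in lung cells, and Nkx2-1, the lung lineage factor, had 0 against 1474 UMIs. Csn3, Ltf and Krt14 had 0 UMIs in the lung cells, which puts the log2 ratios at 9.10, 9.04 and 8.54 or more. Ptn, pleiotrophin, led the members' side with a log2 ratio of 12.16 (interval 10.31 to 15.21). Lcn2 was the reverse, at 1955 CPM in the members and 7551 CPM in TNF+ lung epithelium. Foxa1 was similar in both (0.47, interval 0.14 to 0.80). All 5 MHC class II genes were lower in the members, Cd74 with a log2 ratio of -8.93, and all 9 immediate-early and heat shock genes were higher, Fos with 3.45. The 2 tissues were digested with different enzymes, and tissue cannot be told apart from digestion here.

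In the TNF- synovium 4 of 6638 kept barcodes passed the rule, 0.0603% (interval 0.0164 to 0.154). Of these, 2 were luminal and 2 basal. The luminal cells had 50 and 71 Prlr UMIs and 0 UMIs of Cited1, Aldh1a3, Csn3 and Lcn2. The basal cells had 52 and 51 Krt14 UMIs and 89 and 66 Acta2 UMIs, and 14 and 10 UMIs of Lcn2. Both layers were therefore present in the TNF- library as well. With 1 pool per genotype the genotype and the dissection of that pool cannot be told apart.

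So few cells still weighed on the TNF+ and TNF- comparison of whole synovium. Of 15902 genes with at least 100 UMIs over both libraries, 611 (3.84%) were at least 4-fold higher in TNF+ and 1063 (6.68%) lower. With the 192 members left out of the TNF+ library and the 4 cells that passed the same rule left out of the TNF- library, 477 of the 611 were still 4-fold higher and 134 (21.9%) were not. Of the 134, 16 were then at or below equal levels, and the members held more than 50% of the TNF+ library's UMIs for 113. Leaving out the 192 members alone, so that the TNF- library kept its 4 epithelial cells, ended the call of these 134 and of 17 further genes. The members held more than 50% of the library's UMIs for 275 of the 12769 genes with at least 100 UMIs in the TNF+ library. A summed level mixes the number of cells with the RNA of each cell, and these cannot be told apart in it. With the epithelial cells left out of both libraries, the epithelial genes of the rule stayed higher in TNF+. Krt8 had 709 UMIs against 13 (log2 ratio 6.81) and Epcam 590 against 133 (3.19). Transcripts of these genes thus remained outside the members, and the part of such RNA in the remaining ratios was not tested.

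Single genes show the range. Prlr had 4212 UMIs in the TNF+ library, of which members held 94.3%, and 442 in the TNF- library. Of the latter, 121 came from the 4 epithelial cells. Its log2 ratio of TNF+ over TNF- was 4.18 (interval 4.04 to 4.33) with all kept barcodes and 0.63 (interval 0.38 to 0.88) with the epithelial cells left out of both libraries. It was 0.17 where they were left out of TNF+ alone. Aldh1a3 went from 2.07 (members holding 95.1% of the UMIs) to -2.17 with both left out. Ltf likewise went to -1.69, so both of these genes changed sign. Lcn2 went from 3.78 to 1.76, below 4-fold, with 77.7% of its UMIs in members. Csn3 went from 9.28 to 5.24, where 92 UMIs remained outside the members against 5 in the TNF- library.

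A few genes depended on the side. Cldn4 had 122 UMIs in the TNF- library, 121 of them in the 4 cells, and its log2 ratio was 7.51 with all barcodes, 3.12 with the members alone left out and 10.05 (interval 7.56 to 15.35) with both left out. With both left out, 515 Cldn4 UMIs of TNF+ stood against 1 of TNF-. Wfdc2 was at 5.27, 1.70 and 4.47 in the same order. Saa3 (9.41 with all barcodes and 9.51 with both left out), Slpi (4.94 and 5.21) and Cd14 (3.26 and 3.35), of which members held 0.714%, 2.29% and 1.04%, moved little.

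**Figure D5:**
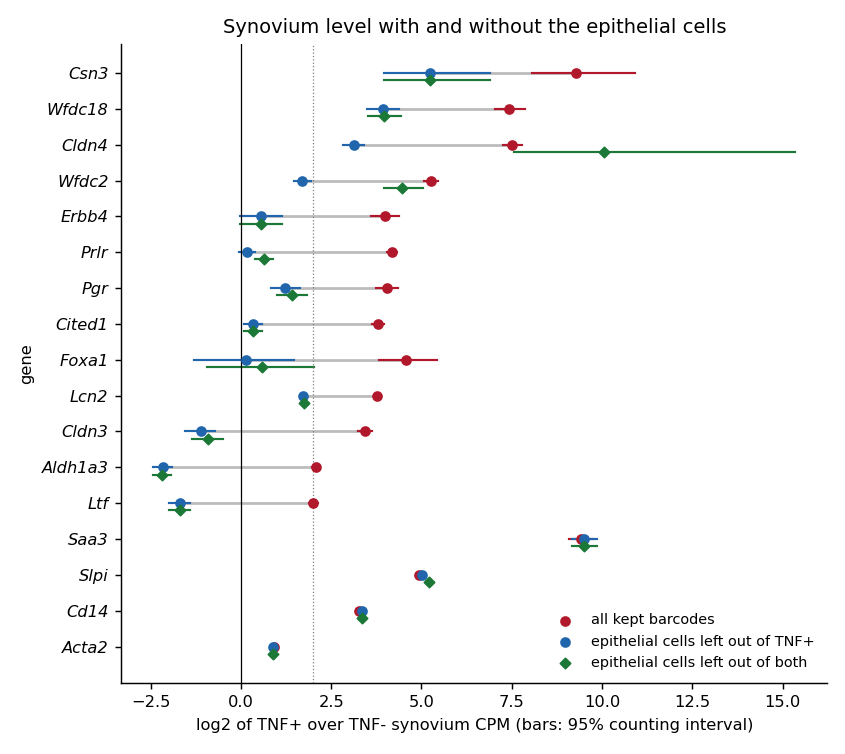
Log2 ratio of TNF+ over TNF- synovium for 17 genes over all kept barcodes (red), with the 192 epithelial cells left out of TNF+ alone (blue) and with the epithelial cells left out of both libraries (green diamonds), with 95% counting intervals as bars and grey lines joining red and blue. The dotted line marks 4-fold: with both left out Prlr, Cited1 and Foxa1 lie within 1 of 0 and Aldh1a3, Ltf and Cldn3 below it, Cldn4 and Wfdc2 differ between blue and green, and Saa3, Slpi, Cd14 and Acta2 keep close to their place.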

How the data were processed

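Gene counts of 4 droplet libraries, 1 per genotype and tissue, were analysed as deposited. The authors made these UMI counts with Cell Ranger 7.0.1, a version that by default also counts intronic reads, against mm10 (GRCm38), per the submitters' processing notes, and the deposited matrices hold whole-number counts for 32285 genes that were not normalized. Barcodes with at least 500 UMIs and at most 20% mitochondrial UMIs were kept, with no upper limit on genes. The UMIs of kept barcodes summed to 47337256 for TNF+ and 90135854 for TNF- synovium, and to 155612951 for TNF+ and 95523525 for TNF- lung. The keratin, adhesion and leukocyte conditions then selected the epithelial cells. The members and the gene lists were chosen with earlier results of these data known, and so were the split sets.

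UMIs were summed over the cells of a class and scaled to CPM. Each level was given an exact Poisson interval and each share an exact Clopper-Pearson interval. Log2 ratios were given conditional exact binomial intervals, all at 95%. A gene was called at a 4-fold difference, and a class at 0 was set to a floor of 3 UMIs over the class. There was 1 library per group from pooled mice, so no p-value was computed. Genes were compared from a minimum of 50 UMIs over both layers, 30 over both luminal classes and 100 elsewhere.

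Named genes were the marker genes, up to 4 genes of each list with the most UMIs, and the leading genes by ratio found in at least 20% of cells of the higher class (10 for the layers and for the members against other barcodes, 8 for the luminal classes, 6 against lung). Other list genes were named after their values were seen, and some genes that the rule names are not reported here. Reference gates were set after the data were seen, with fibroblasts at 10 collagen UMIs, myeloid cells at 5 Tyrobp plus Fcer1g UMIs and endothelium at 2 Cdh5 UMIs. Thinning drew 2000 UMIs per cell without replacement. Doublets were not removed. Scrublet in scanpy 1.11.5 marked 8 of 3498 kept TNF+ synovium barcodes (0.229%), so the 119 highest scores, 4 members among them, were removed only as an alternative. Gene positions came from the GENCODE annotation of GRCm38. Reads shared by overlapping genes cannot be told apart.

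The interval code was tested on simulated data. Python 3.11.15, numpy 2.4.6, scipy 1.17.1, pandas 2.3.3 and matplotlib 3.10.9 were used.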

Additional observations from a re-analysis of the deposited data

Results flagged for a closer look

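The share of kept barcodes passing the epithelial rule went in opposite directions in the 2 tissues. It was 5.43 percentage points higher in TNF+ than in TNF- synovium (5.49% against 0.0603%), and the difference of TNF+ minus TNF- in lung was -2.64 percentage points (1.06% against 3.70%). With 1 pooled library per group this difference between tissues was not tested.

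Among the 748 TNF+ synovium barcodes left out for few UMIs or a high mitochondrial share, 14 met the gene rule (1.87%), with a median of 2061 UMIs. Of the 261 barcodes left out in TNF- synovium 0 did. None of these 14 barcodes entered a value of the report, and their genes were not analysed.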

How the results depend on the processing

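No paired analysis was possible because each group was 1 library. For the same reason no library could be left out, and the intervals leave out variation between animals, dissections and captures. Over the processing alternatives 126 of the main counts and shares kept within 1.5 times or within their counting interval and 25 moved. Single named genes gave 3326 recomputed ratios over 316 genes and comparisons, of which 6 reversed. A further 1032 lay outside their main counting interval or had only a bound in place of one. By size, 542 moved by over 1.5 times. The cause of these moves was not tested beyond what each setting itself removes.

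Under the study's limits of 200 to 5000 genes per cell, the genes 4-fold lower in hormone-sensing than secretory cells numbered 231, those lower in members than other barcodes 34, those lower in members than lung epithelium 186, and the genes lost from the synovium comparison when members were left out of TNF+ alone 100 (151 without these limits). Col1a1 then had a luminal over basal log2 ratio of -0.19. Leaving out members with at least 3 UMIs of another lineage's list left 122 members, 28 genes lower in members than in other barcodes, and ratios of -0.46 for Col1a1 and -0.78 for Col1a2. With 50% of the UMI minimum, 549 genes were lower in luminal than basal cells and 182 lower in members than other barcodes. With no UMI minimum, 1925 genes were lower in luminal cells, 2310 higher and 1897 lower in members than other barcodes, and 1703 higher and 2076 lower in members than lung epithelium, where more genes near 0 enter. The synovium comparison then had 1268 genes higher in TNF+ and 314 of them lost when members were left out of TNF+ alone.

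Splitting luminal cells by the number of set genes detected made 80.8% of assigned cells hormone-sensing, with 632 genes higher in them and a log2 ratio of hormone-sensing over secretory of 6.25 for Ccl2. A 3-fold split gave 526 genes higher and 255 lower in hormone-sensing cells. These further settings were chosen after seeing the data. Without the 3 cells rich in fibroblast UMIs, Col1a1 was at -0.54 and Col1a2 at -0.13. Without the 16 luminal cells with at least 20 UMIs of both sets, 250 genes were lower in hormone-sensing cells. Without members under 5% ribosomal protein UMIs, hormone-sensing cells were 63.8% of assigned cells. Shares of cells with a UMI followed depth. Without thinning they were 76.5% for Prlr and 42.0% for Csn3 in luminal cells and 100% for Acta2 in basal cells, and at 1000 UMIs Prlr was at 47.5%.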
